A study of Homo sapiens with 18 samples.

Results

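The MYC, MAX and MXD network was followed here through 8 genes: MYC, MAX, MXD1, MXD3, MXD4, MNT, MLX and MYCBP2. They were taken by symbol, as the rows of the array table whose annotation gives exactly that 1 gene symbol, and each of the 8 had 1 such row (a transcript cluster, the array's unit of summary) among 18377 genes with a row of this kind. All 8 lay above the filter on dim signals and were tested. The cells were ECV304, an established human line that the labels describe as having endothelial and epithelial traits, and that is known to derive from a bladder carcinoma line. All groups were grown to confluence in medium with 10% serum, kept for 24 h in 1% serum and then stimulated with 100 IU/ml of IL-1β, an inflammatory cytokine (interleukin-1β). Aminaphtone, a drug given for fragile capillaries, was added at 6 µg/ml in 3 groups, while the 3 control groups got the same volume of medium without it. Aminaphtone-treated and control cells were collected at 1, 3 and 6 h, with 3 independent replicates in each of the 6 groups and 1 Affymetrix Human Gene 1.0 ST array per replicate, 18 in all. No cells without IL-1β were included and a single line was used, so a difference between times describes time since IL-1β was added, and cannot be told apart from further starvation or time in culture. The arrays measure RNA, not protein, and less RNA per cell cannot be told apart from fewer cells that hold it.

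MYC is a transcription factor of the basic helix-loop-helix leucine zipper class that drives genes of growth, ribosome production and the cell cycle. It binds DNA only as a pair with MAX, at E-boxes with the letters CACGTG. The MXD proteins and MNT compete for MAX and recruit SIN3 and histone deacetylases to the same sites, so the balance of MYC and of the MXD and MNT proteins sets whether such sites are activated or repressed. MLX is a MAX-like protein that pairs with MXD1, MXD4 and MNT and also with MLXIP and MLXIPL, the factors that answer to glucose. MYCBP2 is a very large ubiquitin ligase found through its binding to MYC. MYC is also an immediate early gene whose short-lived mRNA is induced by serum, growth factors and cytokines.

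The promoters of the network genes were read for the motif that the network itself binds. RefSeq's table (GRCh38.p14) gave a promoter window for all 7 members whose sequence is shown or searched here: MAX, MXD1, MXD3, MXD4, MNT, MLX and MYCBP2. Each window ran from 250 bases before to 50 bases from a start site listed for the gene. MAX has 2 entries in the table and 1 was read, so a lack of matches in MAX holds for that window alone. The E-box CACGTG, which reads the same on both strands, stood in 3 of the 7, those of MXD4, MNT and MLX, at positions -238, -193 and -50 relative to the start, against 7.4% of the 27305 promoters in the table. These 3 are shown with the E-box in capitals, and MXD1, which holds none, beside them, because these 4 are the members besides MYC with a called fall in control cells between 1 and 3 h. The AP-1 motif TGANTCA, searched on both strands, stood once, in MXD3, at position -79 (7.72% of all promoters). The NF-κB consensus stood in none of the 7 (10.8% of all promoters). A match describes letters in this window and is not evidence of a bound factor.
MXD4 (chr4:2262060-2262359, minus strand): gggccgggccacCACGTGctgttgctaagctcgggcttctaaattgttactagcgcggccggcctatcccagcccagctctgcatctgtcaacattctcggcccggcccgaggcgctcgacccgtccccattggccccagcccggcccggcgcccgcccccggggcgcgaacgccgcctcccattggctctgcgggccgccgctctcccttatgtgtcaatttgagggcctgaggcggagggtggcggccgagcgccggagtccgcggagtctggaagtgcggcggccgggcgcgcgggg
MNT (chr17:2401011-2401310, minus strand): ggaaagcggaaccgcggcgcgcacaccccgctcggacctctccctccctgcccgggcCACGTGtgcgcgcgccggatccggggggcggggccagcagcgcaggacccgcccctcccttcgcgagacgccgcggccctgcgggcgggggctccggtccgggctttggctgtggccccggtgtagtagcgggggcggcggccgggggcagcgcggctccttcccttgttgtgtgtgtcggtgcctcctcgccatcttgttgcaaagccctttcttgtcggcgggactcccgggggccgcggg
MLX (chr17:42566850-42567149, plus strand): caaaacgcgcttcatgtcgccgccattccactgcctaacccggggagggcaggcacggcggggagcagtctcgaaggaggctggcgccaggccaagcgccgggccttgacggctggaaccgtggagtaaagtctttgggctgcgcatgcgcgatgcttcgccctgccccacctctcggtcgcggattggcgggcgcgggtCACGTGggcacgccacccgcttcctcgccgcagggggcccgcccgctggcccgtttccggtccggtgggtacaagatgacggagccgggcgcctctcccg
MXD1 (chr2:69914859-69915158, plus strand): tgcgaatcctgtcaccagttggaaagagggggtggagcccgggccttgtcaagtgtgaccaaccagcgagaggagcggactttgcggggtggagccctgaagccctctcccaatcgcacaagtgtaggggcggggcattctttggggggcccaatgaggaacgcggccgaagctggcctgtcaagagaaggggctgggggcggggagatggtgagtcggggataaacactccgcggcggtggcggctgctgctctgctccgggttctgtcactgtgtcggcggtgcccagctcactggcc

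Signals are log2 values after RMA, the authors' normalization, so a difference of 1 is a 2-fold difference. Levels of different genes were not set against each other, because each has its own probes. Array medians ran from 6.93 to 7.06. Of the markers of cell identity, 11 of 11 epithelial and urothelial genes on the array lay above the filter (KRT8 at 12.4, KRT18 at 11.7 and KRT7 at 11.4), and 4 of 10 endothelial genes did (CDH5, TIE1, ESAM and CLDN5), while PECAM1, VWF, KDR, TEK, ERG and EMCN lay below it. Of 7 leukocyte and fibroblast markers, 3 lay above it, with COL1A1 at 7.80 and PTPRC at 3.63. Above the median of annotated transcript clusters (7.53) lay 3 of the 11 epithelial and urothelial genes, the keratins named. So did 2 of the 10 endothelial genes (ESAM at 8.82 and CLDN5 at 7.73) and 1 of these 7 (COL1A1). The control arrays at 1 h stood apart from one another: their pairwise correlations over the transcript clusters tested were 0.889 to 0.963, against at least 0.970 within every other group. The main gradient between arrays of the same group (the first principal component of the deviations from group means) held 59.9% of that variance, and 1 h control replicates 2 and 3 scored 68.7 and 30.3 on it, with the other arrays between -27.2 and 14.4. For the network genes it is said below which control calls were lost without these 2 arrays. In the groups of other genes this is said just for control calls printed with a p-value. Control calls not printed there were lost as well, so a call that is merely counted is not to be read as kept.

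MYC and MXD1 fell and MAX rose with time after IL-1β in aminaphtone-treated and in control cells. MAX was the only member with a called rise, which passed by 3 h in aminaphtone-treated cells and by 6 h in control cells. MXD4, MNT and MLX also fell in control cells by 3 h, so that 5 of the 8 genes were lower there. No member passed the test between aminaphtone-treated and control cells at any time in the fit without a replicate block. A block of replicate numbers within each time called MXD4, MNT and MYCBP2 at 1 h (limma, adjusted p = 0.0315, 0.0321 and 0.0433). The labels do not pair arrays by these numbers. Tests were made with limma over all 18 arrays, a call is a Benjamini-Hochberg adjusted p under 0.05 over the 15796 transcript clusters tested, and p-values measure the spread between these replicates.

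**Figure D1:**
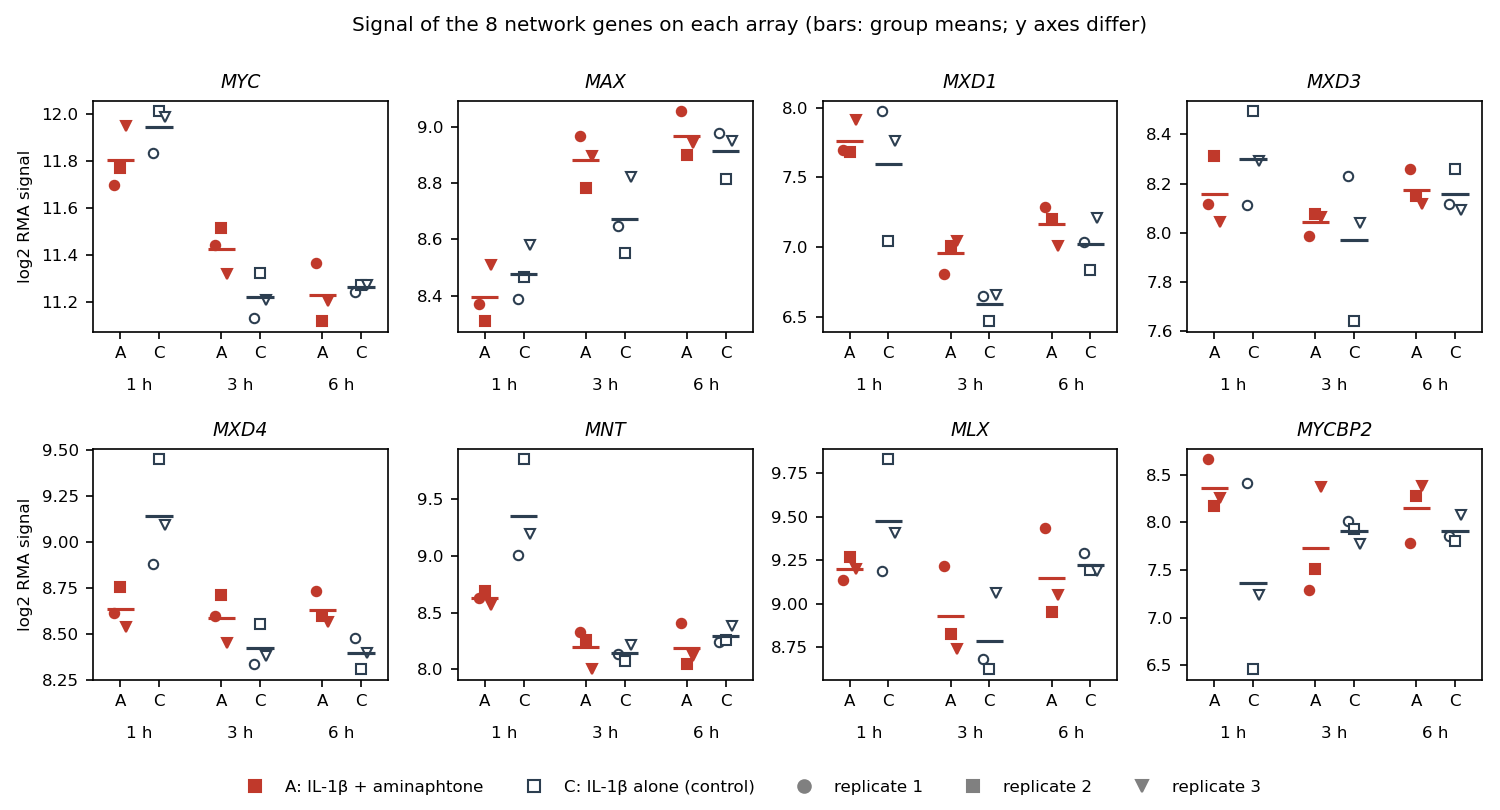
Log2 RMA signal of each of the 8 genes (y axis, own range per panel) in every array, by time after IL-1β and arm on the x axis, with filled red symbols for IL-1β plus aminaphtone, open dark symbols for IL-1β alone, symbol shapes for replicates 1 to 3 and bars for group means. MYC lay above 11.6 on all 1 h arrays and below 11.6 on all later ones, MAX lay lowest at 1 h, and the 1 h control arrays of MXD4, MNT and MYCBP2 were spread widely.

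MYC (transcript cluster 8148317), the activator of the network, was highest at 1 h in both arms. At 1 h MYC had log2 signals of 11.70, 11.77 and 11.95 with aminaphtone, against 11.83, 12.01 and 11.99 in controls. At 3 h its signals were 11.44, 11.51 and 11.32 with aminaphtone, against 11.13, 11.32 and 11.21 in controls. By 6 h they were 11.36, 11.12 and 11.20 with aminaphtone, against 11.24, 11.27 and 11.27 in controls. All 6 arrays at 1 h lay above all 12 later arrays, and the arms overlapped at each time. With aminaphtone MYC fell to 11.43 ± 0.10 at 3 h, against 11.81 ± 0.13 at 1 h (SD, n = 3 each), a log2 difference of -0.38 (SE 0.104) (limma, adjusted p = 0.0263). In controls it fell to 11.22 ± 0.10 at 3 h, against 11.94 ± 0.10 at 1 h, a log2 difference of -0.72 (SE 0.104), or 1.65-fold (limma, adjusted p = 2.47e-04). At 6 h it was below 1 h by 1.49-fold with aminaphtone (log2 -0.58, adjusted p = 0.00105) and by 1.61-fold in controls (log2 -0.68, limma, adjusted p = 2.46e-04). The 6 h minus 3 h differences were -0.20 with aminaphtone and 0.04 in controls, neither past the threshold (adjusted p = 0.583 and 0.987 in limma). The aminaphtone call at 3 h was lost without replicate 2 or 3 of aminaphtone 1 h or replicate 1 or 3 of aminaphtone 3 h (adjusted p up to 0.127). In order of their means the groups ran from the 1 h controls through aminaphtone 1 h, aminaphtone 3 h, control 6 h and aminaphtone 6 h to control 3 h. Among neighbours in that order, aminaphtone 1 h and 3 h did not overlap and nor did aminaphtone 3 h and control 6 h, while the other 3 neighbouring pairs did.

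MAX (7979671), the partner that MYC needs to bind DNA and a partner of the MXD and MNT repressors, moved the opposite way to MYC. Its 1 h signals were 8.37, 8.31 and 8.51 with aminaphtone, against 8.39, 8.47 and 8.58 in controls. At 3 h MAX had 8.97, 8.78 and 8.90 with aminaphtone, against 8.65, 8.55 and 8.82 in controls. By 6 h MAX had 9.06, 8.90 and 8.94 with aminaphtone, against 8.98, 8.81 and 8.95 in controls. The 6 h arrays of each arm all lay above the 1 h arrays of that arm, whereas the 3 h controls overlapped the 1 h controls. With aminaphtone MAX rose 1.40-fold by 3 h (log2 0.49, adjusted p = 0.0061) and 1.48-fold by 6 h (8.97 ± 0.08 at 6 h against 8.40 ± 0.10 at 1 h; log2 0.57, SE 0.105, limma, adjusted p = 0.00118). In controls the 3 h minus 1 h difference was 0.20 (adjusted p = 0.239), and MAX rose 1.35-fold by 6 h (8.91 ± 0.09 at 6 h against 8.48 ± 0.10 at 1 h; log2 0.43, SE 0.105, limma, adjusted p = 0.00609). The group means ran from aminaphtone 6 h through control 6 h, aminaphtone 3 h, control 3 h and control 1 h to aminaphtone 1 h, and every neighbouring pair in that order overlapped.

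MXD1 (8042503), a MAX partner known for its rise when cells stop dividing and differentiate, was lowest at 3 h. Its 1 h signals were 7.70, 7.68 and 7.91 with aminaphtone, against 7.98, 7.05 and 7.76 in controls. At 3 h MXD1 had 6.81, 7.01 and 7.05 with aminaphtone, against 6.65, 6.47 and 6.65 in controls. By 6 h MXD1 had 7.29, 7.20 and 7.01 with aminaphtone, against 7.03, 6.83 and 7.21 in controls. The 3 h arrays lay below all 1 h arrays of their arm, and at 3 h every aminaphtone array lay above every control array. MXD1 was 1.75-fold lower at 3 h than at 1 h with aminaphtone (log2 -0.81, SE 0.181, adjusted p = 0.00794) and 2.01-fold lower in controls (log2 -1.01, SE 0.181, limma, adjusted p = 0.00166). At 6 h it was 1.51-fold lower than at 1 h with aminaphtone (log2 -0.60, adjusted p = 0.031) and 1.49-fold lower in controls, where the groups overlapped (log2 -0.57, limma, adjusted p = 0.0275). The aminaphtone call at 6 h was lost without any 1 of the 3 aminaphtone arrays at 1 h or without replicate 2 or 3 of aminaphtone 6 h (adjusted p up to 0.119). The control call at 6 h was lost without replicate 1 or 3 of the 1 h controls or replicate 1 or 2 of the 6 h controls (adjusted p up to 0.107). The 6 h minus 3 h difference was 0.21 with aminaphtone (adjusted p = 0.825) and 0.43 in controls (adjusted p = 0.399). In order of their means the groups ran aminaphtone 1 h, control 1 h, aminaphtone 6 h, control 6 h, aminaphtone 3 h and control 3 h, and of the neighbours only the last pair did not overlap.

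MXD4 (8098995), the family member usually expressed in cells that are not dividing, changed in the control arm. At 1 h MXD4 had 8.61, 8.75 and 8.53 with aminaphtone, against 8.88, 9.45 and 9.09 in controls. At 3 h its signals were 8.60, 8.71 and 8.45 with aminaphtone, against 8.34, 8.55 and 8.38 in controls. At 6 h they were 8.74, 8.60 and 8.56 with aminaphtone, against 8.47, 8.31 and 8.40 in controls. Thus the 9 aminaphtone arrays stayed between 8.45 and 8.75, and the 1 h controls lay above every other array. With aminaphtone the 3 h minus 1 h difference was -0.05 (95% interval -0.33 to 0.23; limma, adjusted p = 0.888) and the 6 h minus 1 h interval was -0.28 to 0.27 (adjusted p = 0.992). In controls MXD4 fell 1.64-fold by 3 h (8.42 ± 0.11 at 3 h against 9.14 ± 0.29 at 1 h; log2 -0.72, SE 0.131, limma, adjusted p = 0.00192) and 1.68-fold by 6 h (log2 -0.75, adjusted p = 7.15e-04). Leaving out 1 h control replicates 2 and 3 gave -0.46 (limma, adjusted p = 0.0544, no longer a call) and -0.49 (adjusted p = 0.031). The order of the means was control 1 h, aminaphtone 1 h, aminaphtone 6 h, aminaphtone 3 h, control 3 h and control 6 h, with a gap between the first pair and overlap in the others.

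MNT (8011262), a broadly expressed repressor that pairs with MAX and with MLX, had the largest falls among the 8 genes in control cells. At 1 h MNT had 8.63, 8.69 and 8.57 with aminaphtone, against 9.01, 9.85 and 9.20 in controls. At 3 h MNT had 8.33, 8.25 and 7.999 with aminaphtone, against 8.14, 8.07 and 8.22 in controls. By 6 h MNT had 8.41, 8.05 and 8.11 with aminaphtone, against 8.24, 8.26 and 8.38 in controls. The 1 h arrays of each arm lay above its later arrays, and the 1 h controls lay above every other array. With aminaphtone the differences from 1 h were -0.43 at 3 h (95% interval -0.79 to -0.08, adjusted p = 0.122) and -0.44 at 6 h (-0.79 to -0.08; limma, adjusted p = 0.0868). These were not called in the fit of group means to all arrays. They were called with the array score as a covariate (limma, adjusted p = 0.00116 and 0.00162) and with estimated array weights (0.00807 and 1.7e-06), which did not converge. They were also called without 1 h control replicate 1 (limma, adjusted p = 0.0491 and 0.036) or replicate 2 (0.0134 and 0.00888). With just the 6 arrays compared they were called too (limma, adjusted p = 0.0292 and 0.0114). Leaving out 1 h control replicate 1, replicate 2, or 2 and 3 together kept these estimates. It lowered their SE from 0.168 to 0.144, 0.112 and 0.110. No call came with any other single array left out, another filter, median centring, trended variance or the common replicate block. In controls MNT was 2.32-fold lower at 3 h than at 1 h (8.14 ± 0.07 against 9.35 ± 0.44; log2 -1.21, SE 0.168, limma, adjusted p = 1.64e-04) and 2.08-fold lower at 6 h (log2 -1.06, adjusted p = 3.29e-04). The same differences without 1 h control replicates 2 and 3 were -0.87 and -0.72 (limma, adjusted p = 0.00192 and 0.00567). The order of the means was control 1 h, aminaphtone 1 h, control 6 h, aminaphtone 3 h, aminaphtone 6 h and control 3 h, with gaps after the first and after the second and overlap between the remaining neighbours.

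MLX (8007290), which links the MXD and MNT repressors to the glucose-responsive factors, had 9.13, 9.27 and 9.20 at 1 h with aminaphtone, against 9.18, 9.83 and 9.40 in controls. At 3 h MLX had 9.22, 8.82 and 8.74 with aminaphtone, against 8.68, 8.62 and 9.06 in controls. By 6 h MLX had 9.44, 8.95 and 9.05 with aminaphtone, against 9.29, 9.19 and 9.19 in controls. The 3 h controls lay below the 1 h and the 6 h controls, and the aminaphtone groups overlapped at all times. MLX fell 1.61-fold in controls by 3 h (log2 -0.69, SE 0.173, limma, adjusted p = 0.0154), a call lost without 1 h control replicate 2 and without 3 h control replicate 1 (adjusted p up to 0.0728), and without 1 h control replicates 2 and 3 together (log2 -0.40, adjusted p = 0.273). Its 6 h minus 3 h difference in controls was 0.44 (adjusted p = 0.368). Every neighbouring pair in the order of its means, from control 1 h to control 3 h, overlapped.

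MXD3 (8116012), a family member tied to S phase in mouse, and MYCBP2 (7972069) passed in no comparison in the fit of group means to all arrays, while MYCBP2 at 1 h passed with the replicate block within time and both genes passed in some comparisons with array weights. MXD3 ran from 7.99 to 8.31 over the 9 aminaphtone arrays and from 7.64 to 8.49 over the 9 control arrays. Its largest difference was -0.33 between the 3 h and 1 h controls (adjusted p = 0.124). MYCBP2 had 8.66, 8.17 and 8.25 at 1 h with aminaphtone, against 8.41, 6.46 and 7.24 in controls. It had 7.30, 7.51 and 8.38 at 3 h with aminaphtone, against 8.02, 7.93 and 7.78 in controls. By 6 h it had 7.79, 8.28 and 8.38 with aminaphtone, against 7.86, 7.80 and 8.08 in controls. Its arms overlapped at every time, as did every neighbouring pair in the order of its group means, while for MXD3 control 6 h and aminaphtone 3 h were the only neighbours without overlap. Within 1 group, the 1 h controls, MYCBP2 spanned 1.95 log2 units, more than between any pair of group means.

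Set side by side, the time comparisons of the arms showed the following counts. At 3 h against 1 h, 2 of 8 members were lower and 1 higher with aminaphtone, where 10.5% of all transcript clusters tested were called (5.45% lower and 5.09% higher). The median difference of the 8 was -0.33, against 0.02 over all transcript clusters tested. In controls at 3 h against 1 h, 5 of 8 members were lower and 0 higher, where 12.8% were called (7.98% lower and 4.81% higher), with a median of -0.70 for the members and -0.02 over all. At 6 h against 1 h, 2 members were lower and 1 higher with aminaphtone, where 16.7% were called (10.7% lower and 6.01% higher), with a median of -0.13 against 0.02 over all. In controls at 6 h against 1 h, 4 were lower and 1 higher, where 26.5% were called (15.2% lower and 11.3% higher), with a median of -0.41 against -0.01 over all. At 6 h against 3 h, limma called 0 members with aminaphtone, where 0.266% of all were called and 0 members had an unadjusted p under 0.05 (9.82% of all did). It called 0 in controls, where 0.513% were called and 3 members (MAX, MXD1 and MLX) had an unadjusted p under 0.05 (10% of all did). With aminaphtone, 4 members had no overlap between the 3 h and 1 h arrays (32.3% of all transcript clusters had none) and 4 between 6 h and 1 h (46.5%). In controls 5 had none between 3 h and 1 h (16.4%) and 4 between 6 h and 1 h (30.7%). The number of all transcript clusters called in controls at 3 h against 1 h changed greatly between fits, as given at the end. Like that number, the control count of members at 3 h rested on the 1 h controls and on how the spread was estimated. It was 3 of 8 (MYC, MXD1 and MNT) with 1 h control replicates 2 and 3 both left out, 7 of 8 without 1 h control replicate 1, where MXD3 and MYCBP2 joined, and 1 of 8 (MNT) when the fit held just the 6 arrays compared. The 5 control calls at 6 h (MYC, MAX, MXD1, MXD4 and MNT) all passed without 1 h control replicates 2 and 3.

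**Figure D2:**
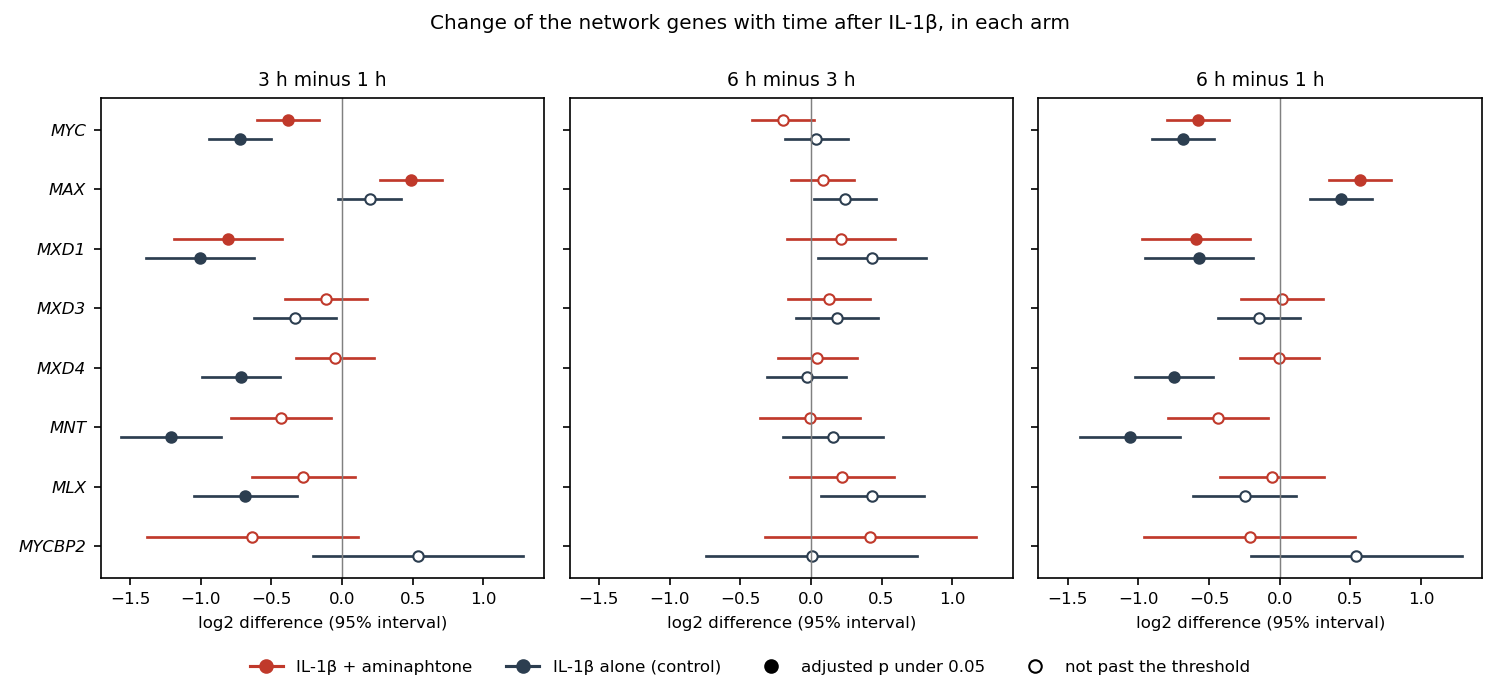
Log2 difference of each gene between times (x axis, later minus earlier, with its 95% interval), in panels for 3 h minus 1 h, 6 h minus 3 h and 6 h minus 1 h, with IL-1β plus aminaphtone in red above IL-1β alone in dark blue and filled points where the adjusted p was under 0.05. MYC and MXD1 lie left and MAX right of 0 in both arms by 6 h, MXD4 and MNT are filled in controls alone, and no point is filled between 3 and 6 h.

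The change over time was called in one arm and not in the other for MAX (by 3 h), MXD4, MNT and MLX, so the difference between the arms was itself tested. From 1 to 3 h, the aminaphtone change minus the control change was 0.67 for MXD4 (95% interval 0.28 to 1.06) and 0.78 for MNT (0.28 to 1.28; limma, both adjusted p = 0.329). From 1 to 6 h it was 0.75 for MXD4 (0.35 to 1.14; adjusted p = 0.358) and 0.62 for MNT (0.12 to 1.12; limma, adjusted p = 0.409). From 1 to 3 h it was 0.34 for MYC (0.03 to 0.65; adjusted p = 0.332) and -1.17 for MYCBP2 (-2.23 to -0.12; limma, adjusted p = 0.332), whose intervals also left out 0. For MAX it was 0.29 from 1 to 3 h (-0.02 to 0.60; adjusted p = 0.365) and for MLX 0.41 (-0.11 to 0.93; limma, adjusted p = 0.406). In the joint test of treatment by time 0 of 8 members passed, where 0.038% of all transcript clusters did. MXD4 (limma, adjusted p = 0.484) and MNT (adjusted p = 0.521) were the 2 members under 0.05 before adjustment, where 9.23% of all were. Without 1 h control replicate 1, MXD4, MNT and MYCBP2 passed this joint test (adjusted p = 0.0111, 0.0179 and 0.0163), in a fit that called 19% of all transcript clusters.

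Aminaphtone was compared with control at each time to ask whether the drug altered the network under IL-1β, and limma called 0 of 8 members at 1, 3 or 6 h, where 0.0886%, 0.038% and 0.108% of all transcript clusters tested were called. At 1 h, 3 members had an unadjusted p under 0.05 (30.8% of all transcript clusters did). The MNT difference was -0.73 (8.63 ± 0.06 with aminaphtone against 9.35 ± 0.44 in controls, SD, n = 3 each; 95% interval of the log2 difference -1.08 to -0.37; limma, adjusted p = 0.11). The MXD4 difference was -0.51 (8.63 ± 0.11 with aminaphtone against 9.14 ± 0.29 in controls; -0.78 to -0.23; limma, adjusted p = 0.138). The MYCBP2 difference was 0.99 (8.36 ± 0.26 with aminaphtone against 7.37 ± 0.98 in controls; 0.25 to 1.74; limma, adjusted p = 0.139). For MNT and MXD4 all 3 aminaphtone arrays lay below all 3 controls, a separation seen in 13.3% of all transcript clusters. The MYC difference at 1 h was -0.14 (-0.36 to 0.08), and that of MAX -0.08 (-0.30 to 0.14). The median of the 8 members was -0.14, against -0.10 over all transcript clusters tested.

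At 3 h MYC, MAX and MXD1 had differences of 0.20 (95% interval -0.02 to 0.42), 0.21 (-0.01 to 0.43) and 0.36 (-0.02 to 0.75) between aminaphtone and control, all with limma's adjusted p at or above 0.79. MXD1 was the 1 member whose arms did not overlap at 3 h (12.6% of all transcript clusters). By 6 h the differences of the 8 ran from -0.10 to 0.24. MXD4 had the largest, 0.24 (-0.04 to 0.52), with every aminaphtone array above every control array (16.1% of all were separated in either direction). At 3 and 6 h 0 members had an unadjusted p under 0.05, where 6.5% and 3.93% of all did. Averaged over the times, limma called 0 members, where 0.829% of all were called, and MNT (-0.26, -0.46 to -0.05, adjusted p = 0.195) and MXD1 (0.22, 0.004 to 0.44, adjusted p = 0.258) had an unadjusted p under 0.05 (18.9% of all did). Without 1 h control replicate 1 these 2 and MYCBP2 were called in the average (adjusted p = 0.0234, 0.0389 and 0.0251), in a fit that called 21.8% of all. The intervals leave room for differences of up to 0.42 for MYC and 0.43 for MAX at 3 h, so a missed threshold does not show that the arms were alike.

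**Figure D3:**
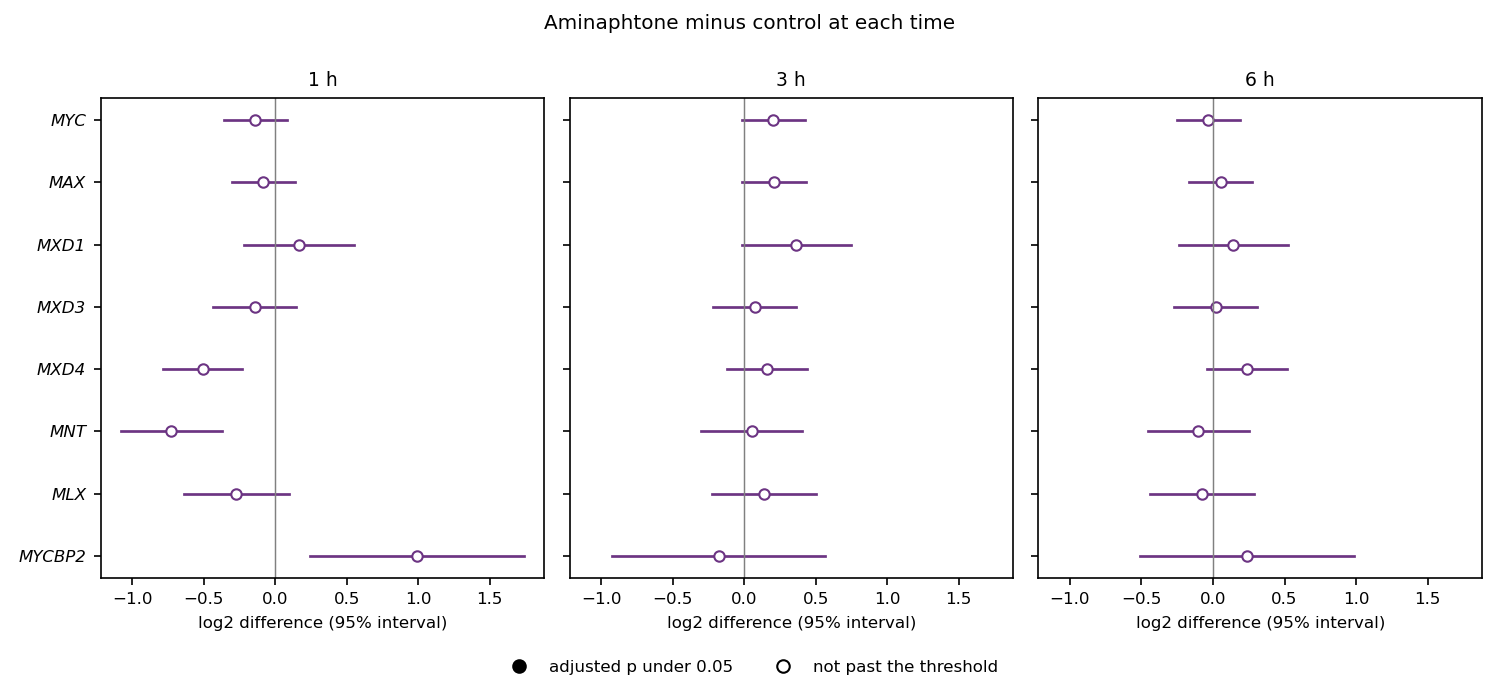
Log2 difference of each gene between aminaphtone and control cells (x axis, aminaphtone minus control, with its 95% interval) at 1, 3 and 6 h. No point is filled, since no adjusted p was under 0.05. At 1 h the intervals of MXD4, MNT and MYCBP2 lie clear of 0, and at 3 and 6 h every interval includes 0.

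The 1 h differences of MNT, MXD4 and MYCBP2 depended on which 1 h arrays were compared. At 1 h arrays of the same replicate number deviated together from their group means (correlations of 0.746, 0.411 and 0.322 for numbers 1, 2 and 3). With the number as a block within each time, limma called MXD4 (adjusted p = 0.0315), MNT (0.0321) and MYCBP2 (0.0433), in a fit that called 15.6% of all transcript clusters. The labels do not give this pairing, which was taken from these same data. That fit also blocked 3 h and 6 h, where same-numbered arrays did not all deviate together. Their correlations were -0.106, 0.519 and -0.0106 at 3 h, and 0.456, -0.0862 and 0.711 at 6 h. Without 1 h control replicate 1 the differences were -0.64 for MXD4 (limma, adjusted p = 0.00185), -0.90 for MNT (0.00133) and 1.51 for MYCBP2 (0.00133), in a fit that called 53.9% of all. Without replicate 2 they were -0.35, -0.48 and 0.54 and none was called. With replicates 2 and 3 both left out they were -0.25, -0.38 and -0.05, which compares 3 aminaphtone arrays with 1 control whose spread is assumed to be that of the other groups. With the array score as a covariate they were -0.26, -0.40 and 0.10, again with no call.

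**Figure D4:**
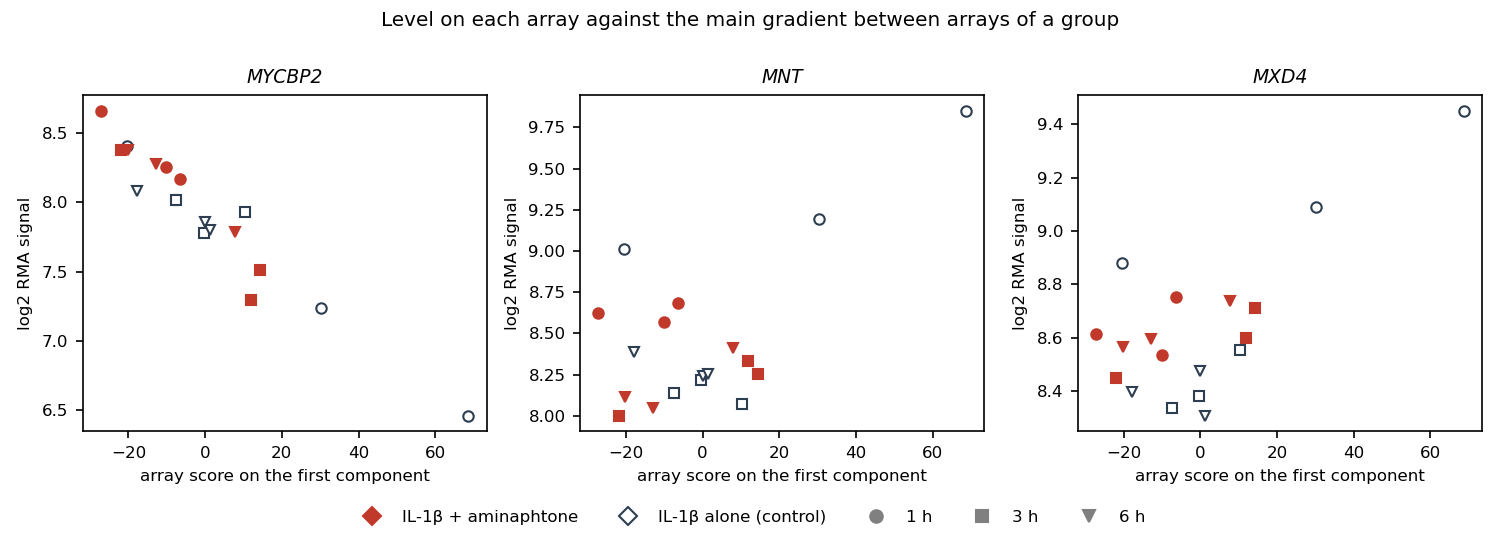
Log2 signal of MYCBP2, MNT and MXD4 (y axes, own ranges) against the score of each array on the main gradient between arrays of a group (x axis), with filled red symbols for IL-1β plus aminaphtone, open dark symbols for IL-1β alone and shapes for the times. MYCBP2 lies lower at higher scores over the whole range, and the pair of 1 h control arrays with the highest scores, 68.7 and 30.3, also has the highest MNT and MXD4.

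The scores themselves differed between the arms at 1 h, with a mean of -14.6 ± 11.1 for aminaphtone and 26.2 ± 44.7 for control (SD, n = 3 each). The fit with the score as a covariate therefore also takes up part of the difference between the arms. MYCBP2 was among the genes most tied to this gradient, with an absolute loading at the 99.6th percentile of all transcript clusters tested. The other 7 members lay between the 3.15th percentile (MAX) and the 69.3rd (MNT). The part of this gradient in the 1 h values of MXD4 and MNT was not tested beyond the fits given above. What the gradient stands for was not tested.

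Genes around the network were described through lists written with earlier results of these data known. The largest list held genes of ribosome production and growth that MYC is known to activate, with 35 of 40 tested. With aminaphtone, while MYC RNA was lower at 6 h than at 1 h, 5 of the 35 rose and 2 fell over the same times, where 6.01% of all transcript clusters were called higher and 10.7% lower. At 3 h against 1 h 4 rose and 0 fell, where 5.09% were called higher and 5.45% lower. The list medians were 0.26 and 0.20, against 0.02 over all transcript clusters tested for both. RRP12, a ribosome export factor, was 2.09-fold higher at 3 h than at 1 h (log2 1.07, limma, adjusted p = 3.57e-04) and 1.82-fold higher at 6 h (adjusted p = 0.00128). NOP16, a nucleolar protein, was 1.75-fold higher at 3 h (adjusted p = 0.00172) and 1.63-fold at 6 h (limma, adjusted p = 0.00287). CDK4 fell 2.03-fold by 6 h (adjusted p = 4.24e-04).

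In controls at 6 h against 1 h, with MYC RNA lower there too, 12 of the 35 rose and 2 fell, where 11.3% of all transcript clusters were called higher and 15.2% lower, with a median of 0.29 against -0.01 over all. POLR1B, a subunit of RNA polymerase I, was 2.34-fold higher (9.52 ± 0.15 at 6 h against 8.29 ± 0.62 at 1 h; log2 1.23, limma, adjusted p = 0.00288). PUS7, a pseudouridine synthase, was 2.12-fold higher (adjusted p = 0.00186), NIP7, which works in ribosome maturation, 2.18-fold (adjusted p = 0.00269) and NOLC1, a nucleolar phosphoprotein, 2.06-fold (limma, adjusted p = 0.00268). CDK4, a cyclin-dependent kinase of the cell cycle, fell 1.70-fold (adjusted p = 0.00313), and EXOSC5, a subunit of the RNA exosome, fell 1.68-fold (limma, adjusted p = 0.00316). At 3 h against 1 h 5 rose in controls and 0 fell, where 4.81% of all were called higher and 7.98% lower, with a median of 0.18 against -0.02 over all. Among them were DDX21, a nucleolar RNA helicase, 2.67-fold higher (adjusted p = 0.0133), and WDR43, a factor of small subunit assembly, 1.95-fold higher (limma, adjusted p = 0.00523). With 1 h control replicates 2 and 3 left out, NIP7 and NOLC1 passed at 6 h (1.56-fold and 1.52-fold, adjusted p = 0.0305 and 0.0413 in limma), while POLR1B, PUS7, CDK4 and EXOSC5 at 6 h and DDX21 and WDR43 at 3 h did not (adjusted p between 0.0579 and 0.516). The counts of rises depended on the fit, and so did the number called over all transcript clusters, given at the end. A change of these counts between fits, or of those of the smaller lists below, is therefore not read as particular to the list. With aminaphtone at 6 h, 2 to 9 were counted with single arrays left out, 11 without 1 h control replicates 2 and 3, 19 with the array score as a covariate and 13 with just the arrays compared. At 3 h with aminaphtone the counts were 2 to 10, 11, 13 and 10 in the same fits. In controls at 6 h they were 8 to 13 with single arrays left out, 23 with the score and 1 with just the arrays compared. At 3 h in controls they were 2 to 11, 18 and 0 in these fits. Leaving out 1 h control replicates 2 and 3 leaves 1 control array at 1 h, so its control counts are not given. All 5 control rises at 3 h were smaller in that fit, as were the 12 at 6 h except NOP16 and NOP2. At 6 h NCL went from 0.91 to 0.29 and HSPD1 from 0.68 to 0.07, while NOP2 went from 0.43 to 0.78.

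Of the 68 genes tested in this list and the 4 smaller ones that follow, limma called 0 between the arms at 1, 3 or 6 h. Over all transcript clusters tested, 0.0886%, 0.038% and 0.108% were called there. Between 3 and 6 h limma also called 0 of the 68 in either arm, beside 0.266% of all with aminaphtone and 0.513% in controls. The null at 1 h rested on 1 array: without 1 h control replicate 1, 43 of the 68 were called (19 higher and 24 lower with aminaphtone), in the fit that called 53.9% of all transcript clusters, and without any other single array 0 were. In the joint test of treatment by time 0 of the 68 passed, where 0.038% of all transcript clusters did. Before adjustment, 15 had a p under 0.05, where 9.23% of all did.

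**Figure D5:**
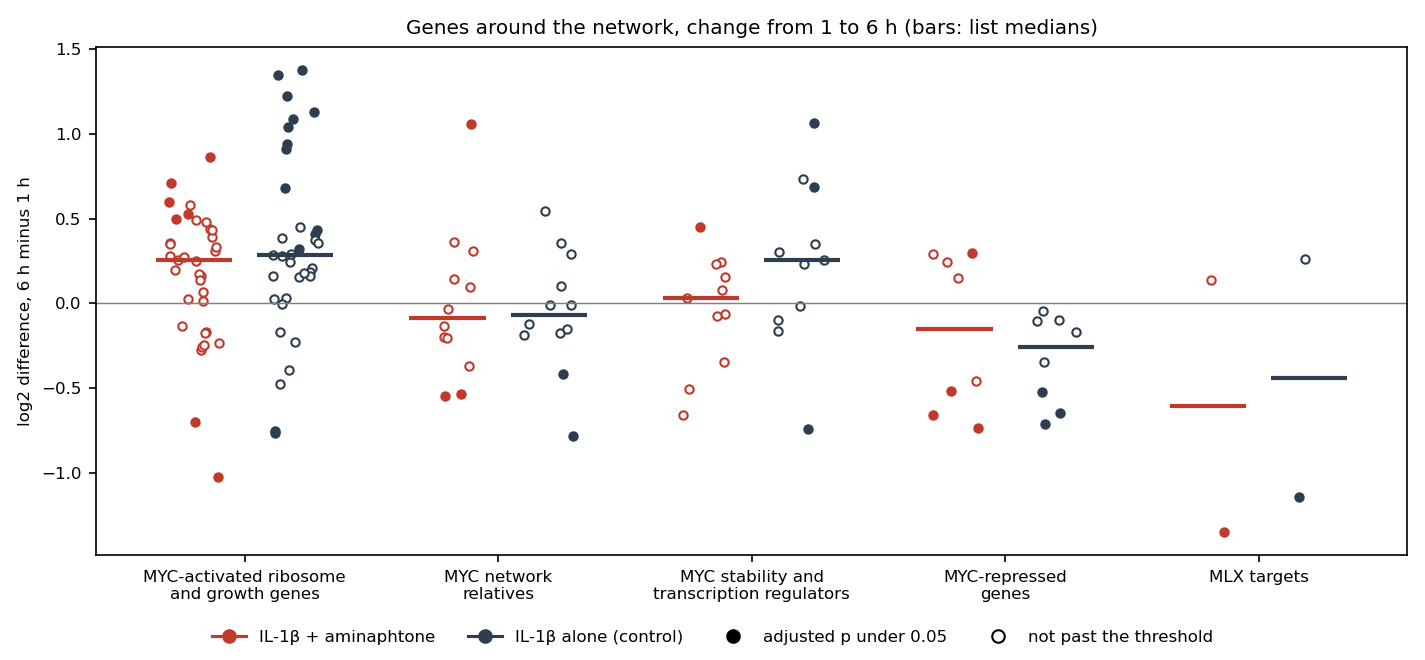
Log2 difference between 6 h and 1 h (y axis) of each tested gene in 5 lists around the network (x axis), with IL-1β plus aminaphtone in red left of IL-1β alone in dark blue, filled points where the adjusted p was under 0.05 and bars for list medians. Most growth genes lie above 0 in both arms (26 of 35 with aminaphtone and 28 of 35 in controls), with CDK4 and EXOSC5 as filled points below it.

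Of the 8 genes that MYC is known to repress, 3 fell and 1 rose with aminaphtone by 6 h, and 3 fell and 0 rose in controls (medians -0.15 and -0.26, against 0.02 and -0.01 over all). Among all transcript clusters 10.7% were called lower and 6.01% higher with aminaphtone, and 15.2% and 11.3% in controls. With single arrays left out, the falls numbered 0 to 4 with aminaphtone and 1 to 3 in controls, and with just the arrays compared 4 and 0. HBP1, an HMG-box repressor, was 1.88-fold lower at 3 h than at 1 h with aminaphtone (log2 -0.91, adjusted p = 0.00507) and 2.47-fold lower in controls (log2 -1.31, limma, adjusted p = 2.81e-04). NDRG2 was 1.43-fold lower at 6 h with aminaphtone (adjusted p = 0.0188) and 1.64-fold lower in controls (limma, adjusted p = 0.00191). GADD45A, a stress-response gene, was 1.58-fold lower at 6 h with aminaphtone (adjusted p = 0.0188) and 1.44-fold lower in controls (limma, adjusted p = 0.0424). CDKN2B, an inhibitor of CDK4 and its relatives, rose 1.23-fold by 6 h with aminaphtone (adjusted p = 0.0341), where the control difference was -0.17 (limma, adjusted p = 0.188). The joint test of treatment by time did not pass for CDKN2B (limma, adjusted p = 0.521). With single arrays left out, the aminaphtone calls at 6 h were lost in 5 fits for CDKN2B, 4 for NDRG2 and 3 for GADD45A. The control call of GADD45A at 6 h was lost in 7 (limma, adjusted p up to 0.185). The control fall of HBP1 at 3 h passed without 1 h control replicates 2 and 3 (adjusted p = 1.29e-04), and those of NDRG2 and GADD45A at 6 h did not (limma, adjusted p = 0.119 and 0.231).

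Of 12 relatives and partners tested, 2 fell and 1 rose by 6 h with aminaphtone, and 2 fell and 0 rose in controls (medians -0.08 and -0.07), beside the same shares over all transcript clusters. With single arrays left out, 0 to 3 fell with aminaphtone and 1 to 3 in controls. MLXIP, the MLX partner also called MondoA, was 1.89-fold higher at 3 h than at 1 h with aminaphtone (log2 0.92, adjusted p = 0.00675) and 2.08-fold higher at 6 h (log2 1.06, limma, adjusted p = 0.00148). In controls its differences were 0.13 (adjusted p = 0.748) and 0.36 (limma, adjusted p = 0.208). KAT5, an acetyltransferase recruited by MYC, was 1.46-fold lower at 6 h with aminaphtone (adjusted p = 0.0488) and 1.72-fold lower in controls (limma, adjusted p = 0.00483). RUVBL1, a helicase of the same complex as KAT5, fell 1.45-fold by 6 h with aminaphtone (adjusted p = 0.0148), and MXI1, another MXD family repressor, fell 1.33-fold in controls (limma, adjusted p = 0.0299). The joint test of treatment by time did not pass for MLXIP (limma, adjusted p = 0.53). With single arrays left out, the control call of MXI1 was lost in 4 of 18 fits (limma, adjusted p up to 0.117). The aminaphtone call of RUVBL1 was lost in 3 (up to 0.069). The control call of MXI1 passed without 1 h control replicates 2 and 3 (adjusted p = 0.0157) and that of KAT5 did not (limma, adjusted p = 0.171), and with single arrays left out the aminaphtone call of KAT5 was lost in 12 of 18 fits.

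TXNIP, the best known target of MLX with MLXIP and a brake on glucose uptake, fell in both arms. It was 2.54-fold lower at 3 h than at 1 h with aminaphtone (log2 -1.34, adjusted p = 4.49e-05) and 2.44-fold lower in controls (log2 -1.29, limma, adjusted p = 7.45e-05). At 6 h it was 2.55-fold lower with aminaphtone (adjusted p = 3.02e-05) and 2.21-fold lower in controls (limma, adjusted p = 1.28e-04). The later TXNIP means with aminaphtone, 6.13 at 3 h and 6.12 at 6 h, lay below the filter on dim signals (6.19). In controls they were 6.07 at 3 h, also below it, and 6.21 at 6 h, just above it. The 1 h means, 7.47 with aminaphtone and 7.36 in controls, lay under the median of annotated transcript clusters (7.53). The folds thus set dim signals against dimmer ones. The control calls passed without 1 h control replicates 2 and 3 (adjusted p = 2.6e-04 at 3 h and 3.66e-04 at 6 h in limma). ARRDC4, its relative among MLX targets, passed in no comparison, with 6 h minus 1 h differences of 0.14 with aminaphtone and 0.26 in controls. Of 11 genes that govern the stability or transcriptional output of MYC, 1 rose and 0 fell by 6 h with aminaphtone, and 2 rose and 1 fell in controls (medians 0.03 and 0.26, against 0.02 and -0.01 over all). Among all transcript clusters 6.01% were called higher with aminaphtone and 11.3% in controls. With single arrays left out, 0 to 1 rose with aminaphtone and 0 to 5 in controls. CDK9, the elongation kinase, rose 1.36-fold by 6 h with aminaphtone (limma, adjusted p = 0.0411). PIM1, a kinase that stabilises MYC, was 1.67-fold lower at 6 h than at 1 h in controls (log2 -0.74, limma, adjusted p = 0.00776), and AURKA, a kinase that binds and protects N-MYC, was 2.09-fold higher (adjusted p = 0.017). Neither passed without 1 h control replicates 2 and 3 (limma, adjusted p = 0.377 and 0.154). The CDK9 call was lost in 12 of the 18 fits with single arrays left out, and the joint test of treatment by time did not pass for PIM1 or CDK9 (both adjusted p = 0.53 in limma).

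The identity markers also moved with time. At 6 h against 1 h 4 of 11 epithelial and urothelial markers fell with aminaphtone and 3 of 11 in controls, and 0 rose, where 10.7% and 15.2% of all transcript clusters were called lower. None of the 3 control falls passed without 1 h control replicates 2 and 3 (KRT5, CDH1 and UPK1B, limma, adjusted p = 0.427, 0.111 and 0.0618). GRHL3, a transcription factor of epithelia, was the 1 marker called between the arms, and was lower with aminaphtone in the average over times (log2 -0.32, limma, adjusted p = 0.0239). The mean of these markers per array ran from 8.005 to 8.05 at 6 h against 8.23 to 8.36 at 1 h with aminaphtone, and from 8.11 to 8.13 against 8.28 to 8.53 in controls. Of the 4 endothelial markers tested 1, CDH5, rose in each arm. Of the 3 leukocyte and fibroblast markers tested 1, CD14, fell, in controls (log2 -0.55 at 3 h and -0.61 at 6 h against 1 h, limma, adjusted p = 0.0163 and 0.00459), and neither call passed without 1 h control replicates 2 and 3 (adjusted p = 0.482 and 0.295). With aminaphtone the CD14 differences were -0.04 and -0.15, and the joint test of treatment by time gave an adjusted p of 0.532 in limma. The mean of the 7 leukocyte and fibroblast markers per array ran from 5.62 to 5.85 over the aminaphtone arrays and from 5.67 to 5.91 over the control arrays. Their part in the time course of the network genes was not tested.

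Over the 18 arrays the transcripts most like each called member were named by Pearson's r among 13804 other genes tested. These points share their groups and the array gradient, so r is given as a description. MYC was most like RXRA (r = 0.970), CSRNP1 (0.969), PAX2 (0.966), ZNF618 (0.965) and GPRC5B (0.962). MAX was most like ARHGAP17 (0.968), TMEM43 (0.958), TRIM25 (0.956), NAV1 (0.954) and NAV2 (0.951). For MXD1 these were RCOR3 (0.958), AFF1 (0.957), TIPARP (0.948), TOB1 (0.932) and ATXN7L1 (0.928). MNT was most like TRAF4 (0.975), NAB2 (0.957), GLIS2 (0.955), TENT5B (0.955) and NKX2-5 (0.952). MXD4 was most like LRRC47 (0.940) and MLX most like C6orf136 (0.945), with the fifth gene at 0.916 for MXD4 and 0.917 for MLX. No member of the network stood among the 5 transcripts most like any of these 6.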

How the data were processed

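Total RNA of 18 ECV304 samples was hybridised to 18 arrays (Affymetrix Human Gene 1.0 ST). The authors deposited log2 signals, 1 value per transcript cluster and array, made with RMA in Affymetrix Expression Console, per the submitters' processing notes. Versions, the arrays normalized together and the genome build of the annotation are not given in the sources used here, so members carry no array coordinates. Of 28869 transcript clusters, 21062 were annotated, 19310 with a single symbol, 1752 with several and 7807 with none. The 15796 annotated ones with a mean log2 above the 25th percentile (6.19) were tested. A model with a mean for each group and all 18 arrays was fitted with limma 3.58.1 (R 4.3.3, lmFit and eBayes, 12 residual and 4.81 prior degrees of freedom), two-sided, with Benjamini-Hochberg adjustment and a threshold of 0.05. The calculation was tested on simulated data. There is no read depth on arrays. Precision is limited by their number.

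The members, the lists and the rule for named genes (all 8 members, up to 4 called genes of each list per comparison by p, and the 5 transcripts most like each called member) were chosen with earlier results of these data known. Per gene the row with the highest mean was taken. Replicate numbers were taken to pair arrays where every same-numbered pair of deviations from the group means correlated above 0.1, which held for aminaphtone and control at 1 h (0.746, 0.411 and 0.322) and for controls at 3 and 1 h (0.313, 0.359 and 0.258). The labels give no such pairing. Alternatives were the filter, median centring, trended variance, array weights, the arrays in the fit, replicate blocks and single arrays left out. The array score as a covariate and leaving out 1 h control replicates 2 and 3 together were added after seeing the data. Promoters came from RefSeq's table for GRCh38.p14.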

Additional observations from a re-analysis of the deposited data

How the results depend on the processing

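With each array left out in turn, the number of the 8 members called ran from 0 to 3 for aminaphtone against control at 1 h, 0 to 0 at 3 h and at 6 h, 0 to 3 for the average over times and 0 to 3 for the interaction of treatment and time. Between times it ran with aminaphtone from 2 to 4 at 3 h against 1 h, 2 to 4 at 6 h against 1 h and 0 to 0 at 6 h against 3 h, and in controls from 4 to 7, 4 to 5 and 0 to 0 for the same pairs of times. The 3 calls at 1 h, in the average and in the interaction came without 1 h control replicate 1. When the fit held just the arrays compared, 1 of 8 was called in controls at 3 h against 1 h and 3 at 6 h against 1 h, where all 18 arrays gave 5 and 5. The replicate block within each time gave 3 members at 1 h (MXD4, MNT and MYCBP2) in place of 0. A common replicate block changed no count of members by more than 1.5 times, also for the controls at 3 h and 1 h, whose numbers were taken as pairs. Estimated array weights gave 7 members at 1 h, 6 at 6 h, 4 in the average and 4 in the interaction, and over time 5, 4 and 5 with aminaphtone (3 h against 1 h, 6 h against 3 h, 6 h against 1 h) and 8 and 2 in controls (3 h against 1 h, 6 h against 3 h). That estimate stopped before convergence, with a weight of 51.9 on 1 h control replicate 3 against 0.0866 and 0.0747 on replicates 1 and 2, and its fits called 4.6% to 74.3% of all transcript clusters. With the array score as a covariate 5 were called with aminaphtone at 3 h against 1 h, MNT and MLX having joined, and 1 (MLX) in controls at 6 h against 3 h. Without 1 h control replicates 2 and 3, 3 were called in controls at 3 h against 1 h. The causes of these shifts were not tested.

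Over all members, comparisons and alternatives, 2295 values kept their direction and side of the threshold or stayed uncalled, 63 gained a call, 23 lost one and 0 called values changed sign, while 73 uncalled values did. Most of the gained calls came with the array weights, which did not converge, and most others in fits without 1 h control arrays. MNT kept its control calls at 3 h and 6 h against 1 h, and MYC and MXD4 theirs at 6 h, in every fit run. With aminaphtone, MAX kept its calls at 3 h and 6 h, MYC its call at 6 h and MXD1 its call at 3 h in every fit that tested them. The control call of MAX at 6 h was lost with just the arrays compared (limma, adjusted p = 0.105). MXD1 was not tested under the stricter filter. Averaging several rows per gene was not run, since each member has 1. With aminaphtone at 6 h against 1 h, 2644 transcript clusters were called in all, and 5201 with only the arrays compared. The number called in all for controls at 3 h against 1 h was 2020, and 228 with only the arrays compared, 5719 without 1 h control replicate 1, 1289 without replicate 3, 988 and 1217 without 3 h control replicates 1 and 3, and 3292 with the score as a covariate. At 6 h against 1 h it was 4185, and 1088, 7083 and, without 6 h control replicate 3, 2586.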
